A study of Mus musculus with 9 samples.

Results

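The genes described here are 37 members of the ribosome biogenesis machinery in mouse tumors, comprising Myc and 36 genes whose products act in the nucleolus. They were picked by gene symbol, as known ribosome biogenesis factors, at a time when earlier results of these data were known. All 37 were found among the 22609 genes of the count tables. All 37 also passed the filter on low counts, which left 13366 genes for testing. RNA-seq was performed on bulk tumors that 4T1, a mammary carcinoma line of BALB/c origin used as a model of triple-negative breast cancer (TNBC), had formed in the fat pad of the mammary gland of BALB/c mice. The study asked how a high-fat diet alters these tumors and how EC359, an inhibitor of the leukemia inhibitory factor receptor (LIFR), acts under that diet.

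The LFD group had received a diet with 10% of its calories from fat, and both the HFD and the HFD + EC359 groups one with 60%, for 6 weeks before 500000 cells were injected and until euthanasia. Mice of the LFD and HFD groups were not given EC359. For the 4T1 model the paper mentions a vehicle without its composition or the groups that received it. It names 0.3% hydroxy propyl cellulose as the vehicle for its MDA-MB-231 xenografts. Mice of the HFD + EC359 group were given EC359 intraperitoneally at 5 mg/kg on 5 days per week after tumors had formed. Each of the 3 groups had 3 libraries. The age of the mice is not given in the sources used here, and no group combined LFD with EC359. The labels number the libraries within a group without naming the animals, so the p-values measure the spread between these libraries. All groups carried the same 1 tumor line, and every library holds RNA of host cells as well as of 4T1 cells.

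Ribosomes are built in the nucleolus, where RNA polymerase I transcribes the long precursor of the ribosomal RNAs. Small nucleolar ribonucleoproteins (snoRNPs) modify this precursor, the small subunit processome and the large subunit assembly factors cut and fold it, and ribosomal proteins are added along the way. Myc, a transcription factor amplified or overexpressed in many cancers, drives transcription at each of these steps by binding with its partner Max to E-boxes, short DNA motifs with the letters CACGTG, and ribosome biogenesis genes are among its best-known targets.

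To show where such motifs lie, CACGTG was searched in the RefSeq promoter windows, which run from 250 bases before to 50 bases after each gene's start. The motif is its own reverse complement, so that a match on one strand is a match on both. A window was given for 29 of the 37 members, and 6 of these 29 (20.7%) held the motif, against 8.09% of all 27025 genes with a window. These 6 members are shown as the DNA around the motif, 30 bases each, 5′ to 3′ on the strand of the gene, with the E-box in capitals. The windows come from RefSeq. The 30 bases shown for each member matched exactly 1 place on the gene's own chromosome in the mm9 genome, the build of the count tables.
Mybbp1a, chr11:72254849-72254878, plus strand: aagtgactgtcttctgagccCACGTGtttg
Nle1, chr11:82721857-82721886, minus strand: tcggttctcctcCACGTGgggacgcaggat
Nop2, chr6:125081829-125081858, plus strand: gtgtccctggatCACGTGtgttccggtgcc
Pes1, chr11:3863968-3863997, plus strand: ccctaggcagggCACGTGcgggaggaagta
Utp20, chr10:88289510-88289539, minus strand: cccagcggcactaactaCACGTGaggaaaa
Wdr43, chr17:71965560-71965589, plus strand: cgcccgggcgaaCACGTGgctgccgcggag
By the annotation used for the counts, the motif lies before the start of the gene in Mybbp1a and Nop2. In Nle1, Pes1, Utp20 and Wdr43 it lies in the first bases of the transcript. The RefSeq window of Mybbp1a has an earlier start than that annotation, and the motif lies within the 50 bases after it. A match describes the sequence and does not show that Myc binds there. Of these 6 members, Mybbp1a, Nle1 and Nop2 were lower in the HFD group than in the LFD group, Wdr43 was higher, and Pes1 and Utp20 did not pass the test. With the trend in GC content removed, as described below, Nle1 and Wdr43 were not called. Over all tested genes 26.0% were called higher and 25.8% lower, and whether the motif goes with the change was not tested. Members without a window were Myc, Npm1, Tcof1, Fbl, Nol6, Rrp12, Bop1 and Rrs1.

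The LFD libraries held 5085357 to 6509130 counts, the HFD libraries 7314704 to 7922852 and the HFD + EC359 libraries 8043649 to 9751201, so depth differed with the group. Levels are given as CPM (counts scaled to library totals with TMM factors). At these depths the limit that a count of 0 allows, 3 counts, is 0.308 to 0.59 CPM, for counting error only, and every member was above it in every library. One LFD library, replicate 1, stood apart from its group. Its counts differed from the other 2 LFD libraries by a chi-square of 2.99 and 2.46 per gene, where the other pairs within groups gave 1.35 to 1.55. Calls that change without it are named with each comparison. Markers of the tumor's cell types moved with the groups. The summed CPM of 6 mammary epithelial markers was 2056 to 2223 in LFD, 772 to 786 in HFD and 1143 to 1169 in HFD + EC359 tumors. For 5 fibroblast markers the sums were 5712 to 6776, 9996 to 10628.5 and 2881 to 2953, for 4 endothelial markers 191 to 199.9, 341 to 368 and 286 to 299, and for 4 macrophage markers 647 to 674, 953 to 983 and 1219.8 to 1232. The other lists, in the same order of groups, gave 141 to 152, 95.6 to 103 and 119 to 125 for 4 epidermal markers and 93.7 to 111, 116 to 126 and 146 to 153 for 3 neutrophil markers. They gave 8.80 to 11.98, 7.73 to 8.70 and 11.96 to 13.5 for 4 T cell markers, 5.93 to 9.26, 19.8 to 23.2 and 20.1 to 24.8 for 4 adipocyte markers, and 87.6 to 93.2, 108 to 119 and 61.5 to 67.3 for 4 skeletal muscle markers. No marker was at 0 in every library, but the 3 B cell markers and the adipocyte genes Adipoq and Lep stayed under 1 CPM throughout. The sums do not show each marker. All 5 fibroblast markers were higher in HFD against LFD (adjusted p under 0.05, edgeR). In HFD + EC359 against HFD 1 was higher and 3 lower, and in HFD + EC359 against LFD 2 were higher and 2 lower. Of the 4 endothelial markers, 3 were higher and 1 lower in HFD + EC359 against LFD. The part of these shifts in the results below was not tested, and in bulk tumors fewer cells of a type and less RNA per cell cannot be told apart.

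The machinery as a whole differed by little between the groups. Summed over the 37 members, the level was 4260 ± 17.2 CPM in LFD, 4214 ± 41.2 CPM in HFD and 4130 ± 40.0 CPM in HFD + EC359 tumors (SD, n = 3 libraries each). The 3 HFD + EC359 libraries lay below all LFD libraries, and the HFD libraries overlapped with both groups. As an unscaled share of the counts the sum was 0.414% ± 0.00315, 0.422% ± 0.00424 and 0.423% ± 0.00472, so the order of the groups turns without the TMM factors. Per kilobase of exon, Npm1, which encodes the nucleolar chaperone nucleophosmin, had the highest level of the members at 258 CPM per kilobase in the LFD group. It was followed by the snoRNP proteins Nop56 at 99.2 and Fbl at 96.5, Rrp1 at 92.0 and Myc itself at 89.6 CPM per kilobase. The lowest was Nop10, at 6.81 CPM per kilobase in the LFD group.

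Single members moved in both directions with the diet. In HFD against LFD, 9 members were higher and 13 lower (adjusted p under 0.05, edgeR's quasi-likelihood test, Benjamini-Hochberg over all tested genes). These are 24.3% and 35.1% of the members, where 26.0% of all tested genes were called higher and 25.8% lower. The changes of the members were small. Their median absolute log2 fold change was 0.17, against 0.25 over all tested genes, with a median standard error of 0.0602 against 0.0979. The median of the signed values was -0.06 for the members and 0.01 for all tested genes. Groups did not overlap for 8 members that were higher and 13 that were lower, where 28.6% of all tested genes did not overlap with higher values in HFD and 28.6% with lower values. Without LFD replicate 1 there were 6 higher and 12 lower calls, those of Myc, Polr1a, Heatr1 and Nop14 being lost. At the stricter threshold of the study's methods, over 2-fold with an adjusted p under 0.01, 1 member remained, Nop10, where 5.71% of all tested genes passed. The plot of log2 fold changes shows both directions among the chaperones and scaffolds, the RNA polymerase I genes and the small subunit factors. The box H/ACA snoRNP had 2 members higher and 0 lower, large subunit assembly 0 higher and 6 lower, and the box C/D snoRNP none called.

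**Figure D1:**
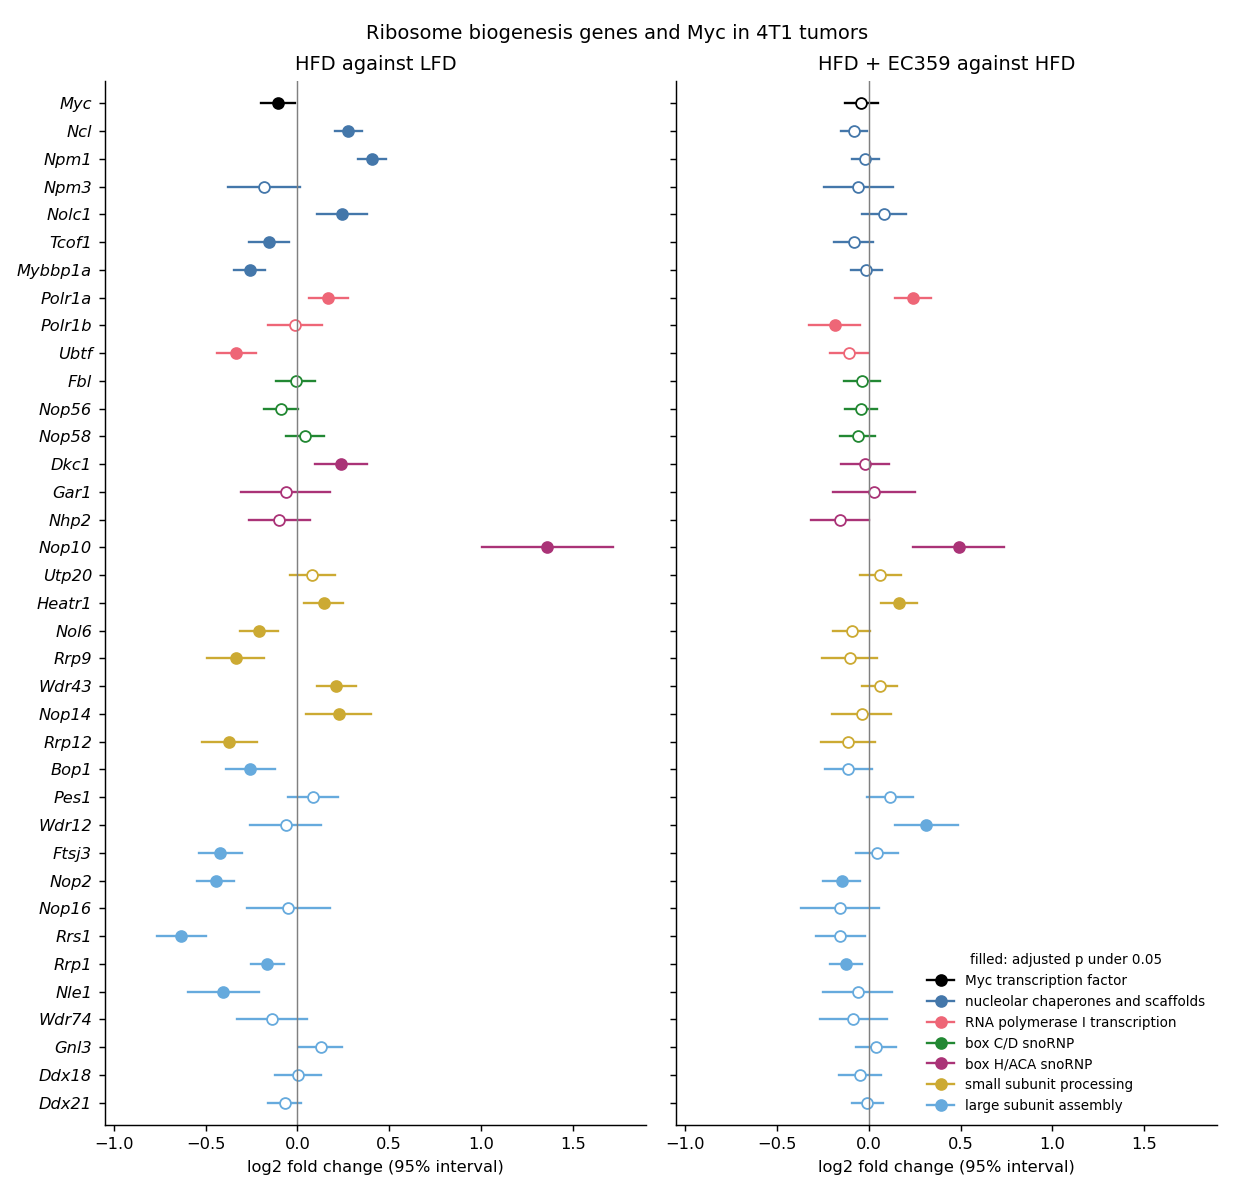
Log2 fold change of each member in HFD against LFD (left) and HFD + EC359 against HFD (right), with 95% intervals from the edgeR fit (n = 3 libraries per group). Colors mark the role and filled points an adjusted p under 0.05. Nop10 lies far to the right of the other members in both panels, and most intervals in the right panel cross 0.

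Myc itself changed little. Its level was 223, 201.7 and 220.0 CPM in the 3 LFD libraries, 204, 196 and 197 CPM in the HFD libraries, and 189, 203 and 189 CPM in the HFD + EC359 libraries. The lowest LFD library lay below the highest HFD library, so the groups overlapped in every pairing. The log2 fold change was -0.11 (SE 0.0458, adjusted p = 0.049, edgeR) in HFD against LFD, just past the threshold. The call was lost in 14 of 18 refits that each changed 1 choice of the processing, among them that without LFD replicate 1. In HFD + EC359 against HFD the log2 fold change of Myc was -0.04, with a 95% interval of -0.13 to 0.05 and an adjusted p of 0.56.

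The nucleolar chaperones and scaffolds split into members that were higher and members that were lower with the high-fat diet. With the trend in GC content removed, as described below, only Nolc1 (higher) and Mybbp1a (lower) kept their calls. In that fit Npm1 (0.08, adjusted p = 0.082, edgeR), Ncl (-0.04, adjusted p = 0.35) and Tcof1 (0.05, adjusted p = 0.48) were not called. Npm1 measured 322, 333 and 318 CPM in the LFD libraries and 422, 431 and 437 CPM in the HFD libraries. All HFD libraries lay above all LFD libraries, and Npm1 was higher by 0.41 on the log2 scale (SE 0.0371, adjusted p = 7.3e-11). Ncl, which encodes nucleolin, an abundant nucleolar protein that binds ribosomal DNA and RNA, measured 497, 482 and 529 CPM in the LFD group and 611, 609 and 608 CPM in the HFD group. Again the groups did not overlap, with a log2 fold change of 0.28 (SE 0.0366, adjusted p = 1.4e-07). Nolc1, the snoRNP chaperone Nopp140, rose from 51.8, 58.2 and 57.8 CPM to 64.7, 66.8 and 67.7 CPM (log2 fold change 0.24, SE 0.0669, adjusted p = 0.0030). Mybbp1a, a nucleolar protein that binds the Myb transcription factor and RNA polymerase I, fell in every HFD library, from 251, 245 and 242 CPM to 196, 210.0 and 209 CPM (log2 fold change -0.26, adjusted p = 3.5e-06). Tcof1, the treacle scaffold of ribosomal DNA transcription, was lower by a smaller amount (-0.15, adjusted p = 0.018) with overlapping libraries, and Npm3, a relative of Npm1, did not pass the test (-0.18, 95% interval -0.38 to 0.02).

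The plot by library shows these levels side by side for 12 members.

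**Figure D2:**
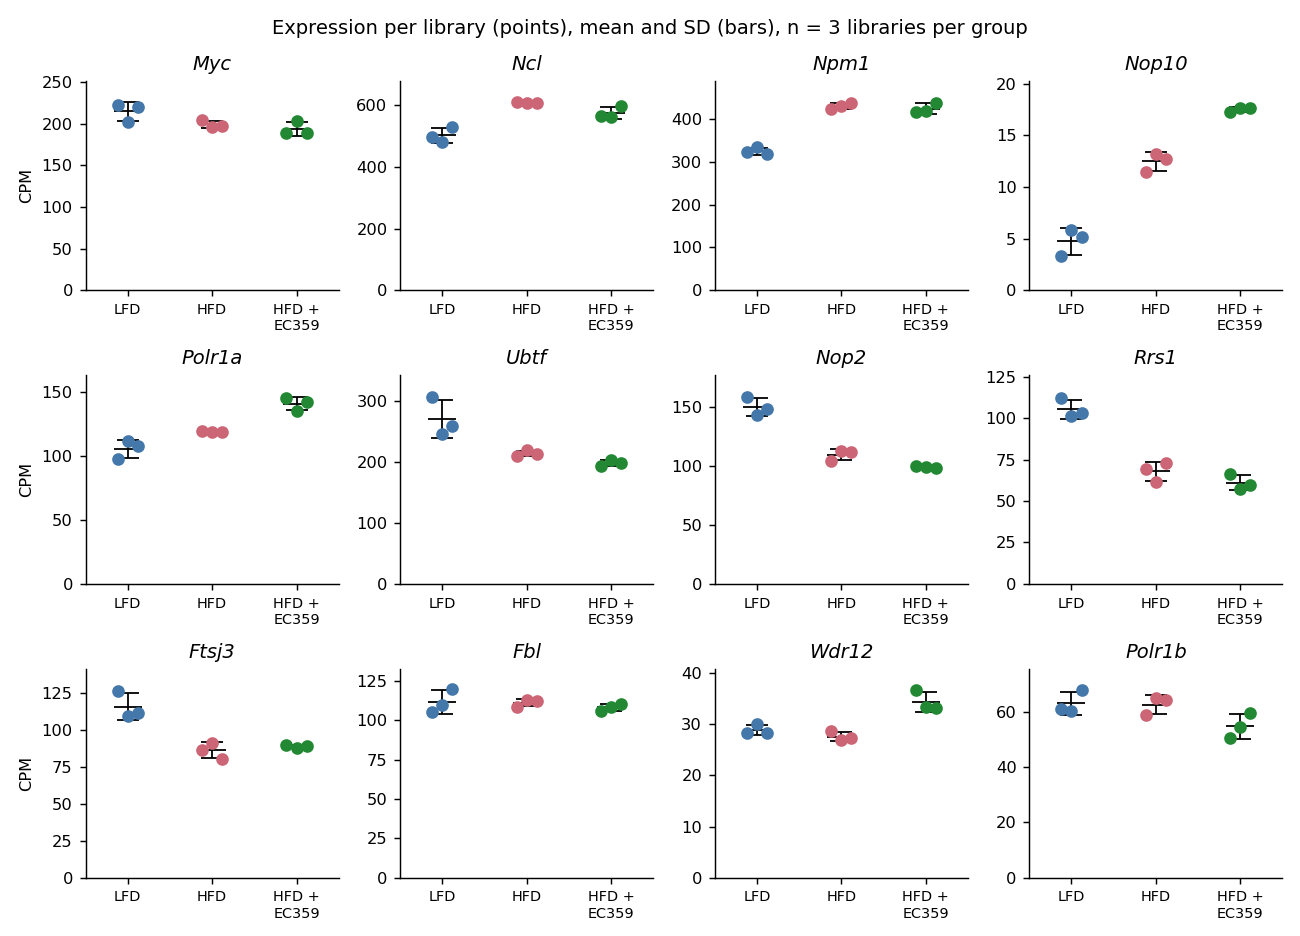
Expression of 12 members in CPM (y axis, from 0) in each library of the LFD, HFD and HFD + EC359 groups. Points are libraries, and bars give the mean and SD of 3 libraries. Npm1 and Ncl are higher in all HFD than in all LFD libraries, Ubtf, Nop2, Rrs1 and Ftsj3 are lower, Nop10 and Polr1a rise over the 3 groups, and Fbl stays level.

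The RNA polymerase I genes also went opposite ways. Polr1a, the largest subunit of the polymerase, measured 97.6, 111 and 107 CPM in the LFD libraries and 119, 119 and 119 CPM in the HFD libraries, and it was higher by 0.17 on the log2 scale (SE 0.0526, adjusted p = 0.0082). This call was lost without LFD replicate 1, the lowest of the LFD libraries. Ubtf, the upstream binding factor that opens ribosomal DNA for transcription, measured 306, 246 and 259 CPM in the LFD group and 209.8, 219 and 213 CPM in the HFD group. Every HFD library was below every LFD library, and the log2 fold change was -0.33 (SE 0.0523, adjusted p = 2.7e-06). Polr1b, the second largest subunit, did not differ beyond its spread (-0.01, 95% interval -0.16 to 0.14).

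The box C/D snoRNP proteins, which carry the methylation guides of ribosomal RNA, held no member that passed the test in HFD against LFD or in HFD + EC359 against HFD. Fbl, the methyltransferase fibrillarin, measured 105, 110.0 and 120.0 CPM in the LFD libraries, 108, 113 and 113 CPM in the HFD libraries and 106, 109 and 110 CPM in the HFD + EC359 libraries. Nop56, a core protein of these particles, measured 187, 194 and 184 CPM in the LFD libraries, 169, 178 and 184 CPM in the HFD libraries and 168, 177 and 170 CPM in the HFD + EC359 libraries. Fbl overlapped between all groups. Nop56 overlapped in both comparisons with the HFD group, but its HFD + EC359 libraries all lay below its LFD libraries (log2 fold change -0.13, adjusted p = 0.012, edgeR). Their log2 fold changes in HFD against LFD had 95% intervals of -0.11 to 0.10 for Fbl and -0.18 to 0.00 for Nop56, and that of the third member, Nop58, ran from -0.06 to 0.14.

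The box H/ACA snoRNP, which carries the pseudouridylation guides, held the member with the largest change of all. Nop10, the smallest protein of this particle, measured 3.27, 5.81 and 5.11 CPM in the LFD libraries, 11.5, 13.2 and 12.7 CPM in the HFD libraries, and 17.2, 17.6 and 17.6 CPM in the HFD + EC359 libraries. The 3 groups did not overlap in any pairing. Nop10 was higher by 1.36 in HFD against LFD (95% interval 1.01 to 1.72, adjusted p = 8.3e-08), a 2.57-fold difference, and by a further 0.49 in HFD + EC359 against HFD (95% interval 0.24 to 0.74, adjusted p = 0.0024). It also was the shortest member, with 695 bases of exon, and the one with the fewest counts. Its partners in the same particle did not share this change. Dkc1, the pseudouridine synthase dyskerin, was higher by 0.24 in HFD against LFD (adjusted p = 0.0055), with 50.9, 46.5 and 47.1 CPM in the LFD libraries and 56.2, 55.1 and 58.5 CPM in the HFD libraries, which did not overlap. With the trend in GC content removed, as described below, Dkc1 was not called (-0.0014, adjusted p = 0.99, edgeR). Gar1 (-0.06) and Nhp2 (-0.10) did not pass the test, with 95% intervals of -0.31 to 0.18 and -0.27 to 0.07.

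Among the 7 small subunit processing factors, 3 were higher and 3 lower in the HFD group. With the trend in GC content removed, as described below, 0 were higher and 1 was lower, Rrp12. The higher ones were the processome components Heatr1 (0.14, adjusted p = 0.025), Wdr43 (0.21, adjusted p = 0.0010) and Nop14 (0.22, adjusted p = 0.030). The calls of Heatr1 and Nop14 were lost without LFD replicate 1. The lower ones were Nol6 (-0.21, adjusted p = 9.2e-04), the U3 snoRNP protein Rrp9 (-0.34, adjusted p = 4.2e-04) and Rrp12, a factor of small subunit export. Rrp12 had the largest change of these, from 77.9, 67.7 and 66.1 CPM in the LFD libraries to 58.8, 53.8 and 50.2 CPM in the HFD libraries, which did not overlap (log2 fold change -0.37, SE 0.0734, adjusted p = 7.9e-05). Utp20 did not pass the test (0.08, 95% interval -0.04 to 0.20), and its LFD libraries spread from 108 to 137 CPM around the HFD libraries.

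Large subunit assembly had 6 of 13 members lower and 0 higher in HFD against LFD by this test. With the trend in GC content removed, as described below, 5 were lower and 0 higher. Rrs1, Nop2 and Ftsj3 were called lower in both fits. The calls of Nle1, Bop1 and Rrp1 were lost, and Wdr12 and Ddx21 were called lower instead. Rrs1, which brings the 5S ribosomal RNA into the pre-ribosome, fell furthest, from 112, 101 and 103 CPM in the LFD libraries to 69.2, 61.4 and 72.9 CPM in the HFD libraries. Its log2 fold change was -0.63 (SE 0.0654, adjusted p = 1.1e-09), a change of -35.5%. Nop2, a methyltransferase of the large ribosomal RNA, fell from 158, 143 and 148 CPM to 104, 112 and 112 CPM (log2 fold change -0.45, SE 0.0498, adjusted p = 5.0e-09). Both genes were lower in every HFD library than in any LFD library. Ftsj3, the homolog of the yeast methyltransferase Spb1, fell from 126, 109 and 111 CPM to 86.5, 91.0 and 80.3 CPM (log2 fold change -0.42, adjusted p = 3.0e-07). Nle1, a Notchless protein that acts on late pre-60S particles, fell from 36.4, 40.3 and 37.7 CPM to 25.5, 32.2 and 29.2 CPM (log2 fold change -0.40, adjusted p = 5.7e-04). Neither gene overlapped between the 2 groups. The other calls were Bop1 (-0.26, adjusted p = 0.0014) and Rrp1 (-0.16, adjusted p = 0.0021).

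Bop1 acts in the PeBoW complex together with Pes1 and Wdr12, and whether the 3 subunits differ was not tested. Bop1 was lower in the HFD group, while Pes1 (0.08, 95% interval -0.05 to 0.22) and Wdr12 (-0.06, 95% interval -0.26 to 0.13) did not pass the test. With the trend in GC content removed, Wdr12 was called lower (-0.25, adjusted p = 0.028, edgeR) and Bop1 was not called (-0.02, adjusted p = 0.86). The remaining members of the role, the GTPase Gnl3 (nucleostemin), the RNA helicases Ddx18 and Ddx21, Wdr74 and Nop16, had log2 fold changes of -0.14 to 0.13 with no call. Ddx21 and Wdr74 had lower values in every HFD library than in any LFD library even so, with changes of -4.77% and -9.17%.

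**Figure D3:**
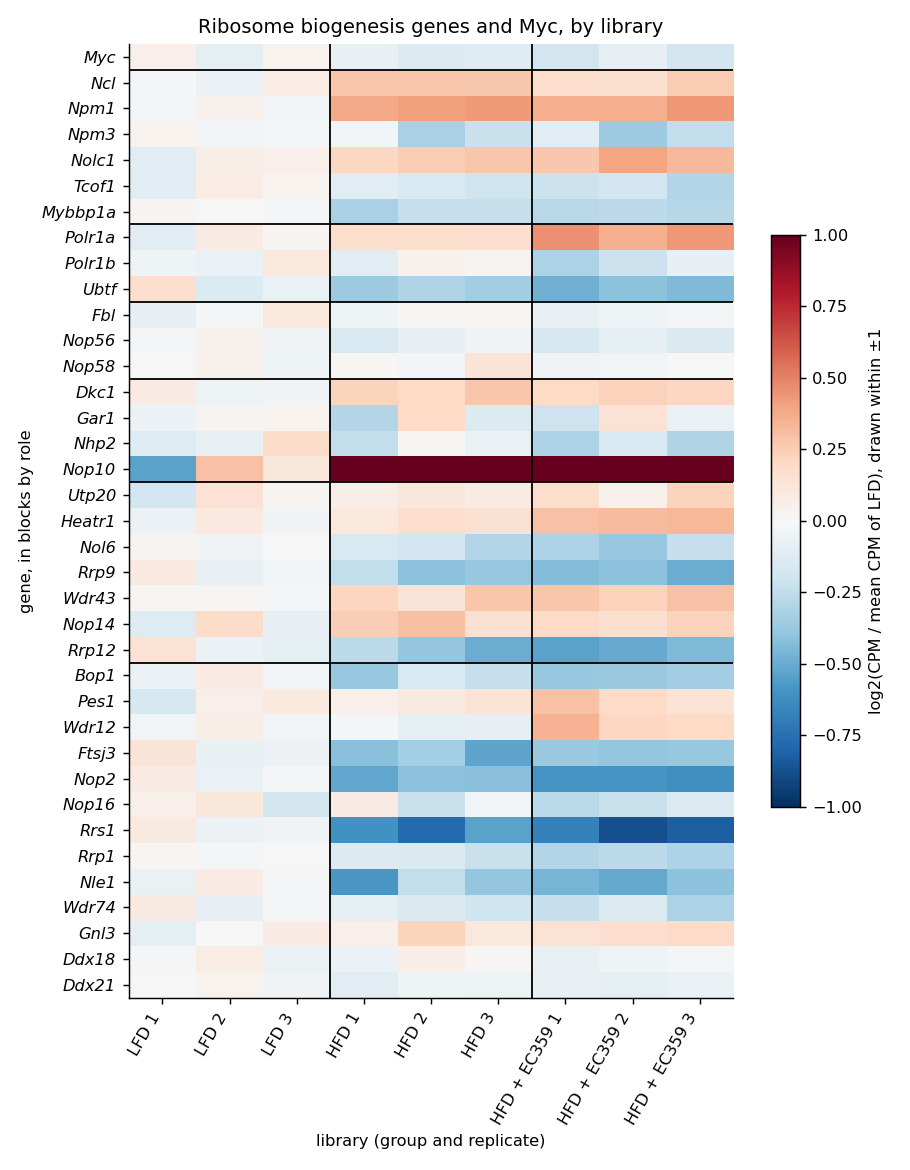
Log2 ratio of the CPM of each library to the mean CPM of the LFD group, for the 37 members in blocks by role (top to bottom: Myc, nucleolar chaperones and scaffolds, RNA polymerase I, box C/D, box H/ACA, small subunit, large subunit), drawn within -1 and 1. Red is higher and blue lower. Rrs1, Nop2, Ubtf and Ftsj3 are blue in all 6 HFD and HFD + EC359 libraries, and Nop10 reaches the end of the scale in all 6 of them.

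Fewer members moved in HFD + EC359 against HFD. Here the same test called 4 members higher and 3 lower, or 10.8% and 8.11% of the members, where 12.7% of all tested genes were called higher and 13.9% lower. Both shares are below those over all tested genes. Groups did not overlap for 5 members with higher and 5 with lower values, where 20.6% and 20.7% of all tested genes did not. The median log2 fold change was -0.04, against 0.01 over all tested genes, and the values ran from -0.19 to 0.49. Over 2-fold with an adjusted p under 0.01 there were 0 members, where 3.43% of all tested genes passed. DESeq2 called 3 members at an adjusted p under 0.05.

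The 4 members that were higher with EC359 belong to 4 roles. Nop10 (0.49) is described above. Wdr12, a subunit of PeBoW, measured 28.6, 26.9 and 27.3 CPM in the HFD libraries and 36.6, 33.3 and 33.1 CPM in the HFD + EC359 libraries (log2 fold change 0.31, SE 0.0846, adjusted p = 0.0054). Its LFD libraries, at 28.2, 30.0 and 28.2 CPM, lay with the HFD libraries. Polr1a rose to 145, 135 and 142 CPM, above all HFD libraries (0.24, SE 0.0476, adjusted p = 1.9e-04). Heatr1, a processome component that also acts in RNA polymerase I transcription, measured 101, 106 and 105 CPM in the HFD and 115, 117 and 118 CPM in the HFD + EC359 libraries, again with no overlap (0.17, SE 0.0483, adjusted p = 0.0099). The LFD libraries of Heatr1 measured 90.2, 100.5 and 91.6 CPM. The call of Heatr1 with EC359 was lost with DESeq2, without HFD replicate 1 and without HFD + EC359 replicate 3. Since both comparisons share the HFD libraries, the rise of Nop10, Polr1a and Heatr1 in each is not independent evidence for the other.

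The 3 members that were lower with EC359 changed less. Polr1b measured 58.8, 64.8 and 64.2 CPM in the HFD libraries and 50.6, 54.4 and 59.6 CPM in the HFD + EC359 libraries, which overlapped (log2 fold change -0.19, SE 0.0686, adjusted p = 0.043). Nop2 fell to 99.5, 99.0 and 97.9 CPM, below all HFD libraries (-0.15, SE 0.0493, adjusted p = 0.024). Rrp1, a nucleolar protein of large subunit maturation, fell from 168, 168 and 158 CPM to 151, 154 and 149 CPM, also with no overlap (-0.12, SE 0.0426, adjusted p = 0.029). None of these 3 calls remained with DESeq2 (3 higher and 0 lower) or with library totals in place of TMM factors (4 higher and 0 lower). Without LFD replicate 1, 4 were higher and 6 lower, with Ncl, Ubtf and Rrs1 added on the lower side. Polr1a and Polr1b, which form the core of the same polymerase, were called in opposite directions, the first in all 18 refits and the second in 12 of them.

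Of the members that had changed most with the diet, several showed no detectable change with EC359 in the fit as reported. The log2 fold changes in HFD + EC359 against HFD were -0.02 for Npm1 (95% interval -0.09 to 0.05), -0.01 for Mybbp1a (-0.10 to 0.07), -0.02 for Dkc1 (-0.15 to 0.11), 0.04 for Ftsj3 (-0.07 to 0.16) and -0.06 for Nle1 (-0.25 to 0.13). Ncl was lower in every HFD + EC359 library than in any HFD library, at 567, 562 and 599 CPM, but did not pass the test (-0.08, adjusted p = 0.090). Rrs1, at 66.1, 57.3 and 59.6 CPM, overlapped with the HFD libraries (-0.16, adjusted p = 0.081). With the trend in GC content removed, as described below, Npm1 (-0.20), Ncl (-0.14) and Rrs1 (-0.17) were called lower with EC359. Mybbp1a, Dkc1, Ftsj3 and Nle1 were not called in that fit either.

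In HFD + EC359 against LFD, 12 members were higher and 18 lower by the same test, where 29.2% of all tested genes were called higher and 29.1% lower. These are 32.4% and 48.6% of the members. Over 2-fold with an adjusted p under 0.01, Nop10 alone passed (1.85), where 5.09% of all tested genes did. Among the lower members were Rrs1 (-0.79), Nop2 (-0.59) and Ubtf (-0.44), and Myc (-0.15, adjusted p = 0.0059). The call of Myc was lost with library totals in place of TMM factors. It was also lost with the trend in GC content removed (-0.04, adjusted p = 0.46, edgeR). Without LFD replicate 1, 9 were higher and 16 lower, the calls of Npm3, Utp20, Pes1, Wdr74 and Gnl3 being lost. With library totals in place of TMM factors 13 were higher and 12 lower, and with the trend in GC content removed 5 were higher and 16 lower. This comparison uses the libraries of the other 2 and adds no separate evidence.

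The direction of the change with the diet varied with the base composition of the genes. The 9 members that were higher in the HFD group had exons with 41.2% to 52.4% GC (median 46.2%), and the 13 that were lower had 50.3% to 59.9% GC (median 55.8%). Across the 37 members, GC content and the log2 fold change in HFD against LFD had a Pearson's r of -0.60 and a Spearman's rho of -0.72, which describes genes that share the same 6 libraries. Over all 13366 tested genes the values were -0.33 and -0.48. Of the 3342 genes with the lowest GC content 50.7% were called higher and 6.85% lower, and of the 3342 with the highest 8.74% were called higher and 50.4% lower. The relation over the members was weaker in HFD + EC359 against HFD, with an r of -0.41 and a rho of -0.49.

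The comparison was therefore repeated after a smooth trend with GC content and exon length was removed from each library. In HFD against LFD, 4 members were then called higher and 9 lower, where 20.2% of all tested genes were called higher and 22.7% lower. Nolc1, Polr1a and Nop10 were higher and Mybbp1a, Ubtf, Rrp12, Ftsj3, Nop2 and Rrs1 lower in both fits. The calls of 13 other members were lost, among them those of Myc (0.01, adjusted p = 0.84), Npm1 (0.08, adjusted p = 0.082), Ncl (-0.04, adjusted p = 0.35) and Dkc1 (-0.00, adjusted p = 0.99), and Fbl (0.19), Nop58 (-0.23), Wdr12 (-0.25) and Ddx21 (-0.24) were called instead. With the trend removed, 4 members were called higher and 8 lower in HFD + EC359 against HFD, where 10.3% of all tested genes were called higher and 15.9% lower. The 7 calls above were all among them, and Ncl (-0.14), Npm1 (-0.20), Nop58 (-0.18), Nhp2 (-0.24) and Rrs1 (-0.17) were added on the lower side. The trend moved with the groups, and a change that favors genes of low GC content in the tumor cannot be told apart here from one in the libraries.

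**Figure D4:**
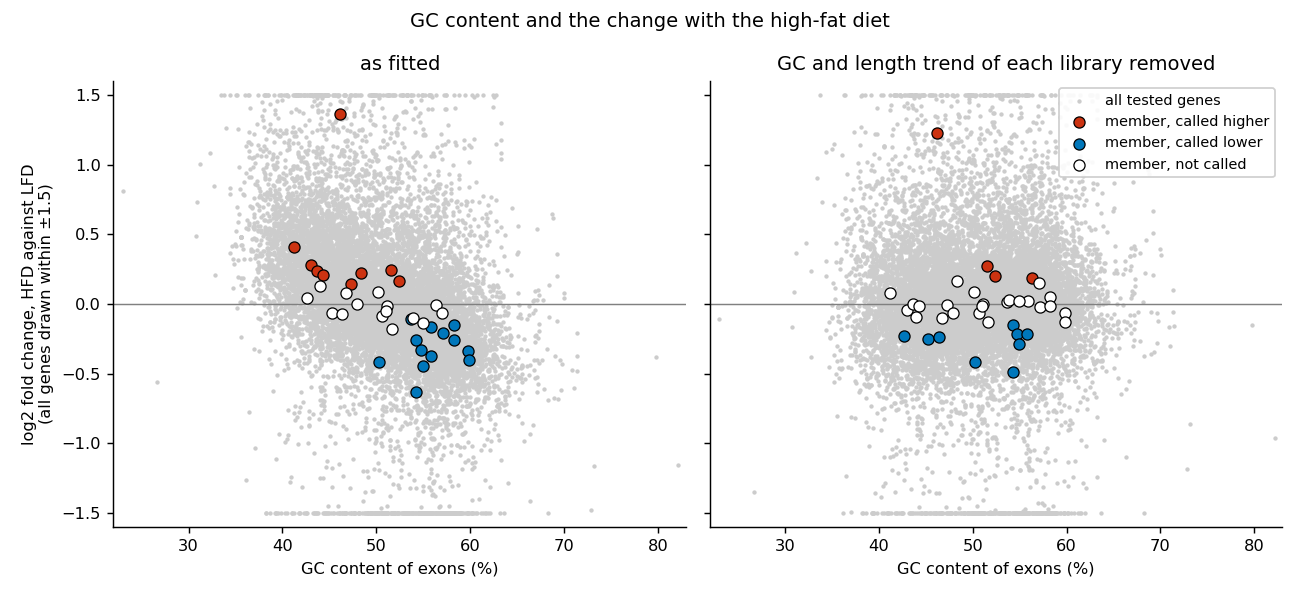
Log2 fold change in HFD against LFD (y axis) against the GC content of the exons (x axis, percent) as fitted (left) and with the trend in GC content and exon length taken out of every library (right). Large points are the 37 members, red for higher, blue for lower and white for not called, and small grey points are all tested genes, drawn within -1.5 and 1.5. On the left the red points lie at lower GC content than most blue points, and on the right this order is gone.

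Calls made in the fit as reported and in all 18 refits were those of Nolc1 and Nop10 (higher) and of Mybbp1a, Ubtf, Rrp12, Ftsj3, Nop2 and Rrs1 (lower) in HFD against LFD. For EC359 under the high-fat diet they were those of Polr1a, Nop10 and Wdr12, all higher. Reads of some members can also match other places in the genome. The count tables held fractions for 9 members, Ncl, Npm1, Fbl, Utp20, Nol6, Wdr43, Rrp12, Nop16 and Ddx18, each in 1 to 3 libraries, and the values of these members are uncertain to that extent. No member overlaps another gene on its own strand.

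Other factors of the pathway were also called in both directions in HFD against LFD. Of 11 tested genes of the remaining RNA polymerase I machinery, 3 were higher and 2 lower, and the 3 most abundant, the initiation factor Rrn3 (0.44), Taf1d (0.53) and the termination factor Ttf1 (0.28), were those that were higher. Of 43 further small subunit factors, 8 were higher and 10 lower, with Pdcd11 (-0.23) and Rrp7a (-0.42) lower and Wdr36 (0.10, adjusted p = 0.17) not called. Of 46 further large subunit factors, 8 were higher and 9 lower. The abundant Eif6, which keeps the subunits apart, fell from 252 ± 11.6 to 156 ± 5.92 CPM (SD, n = 3, log2 fold change -0.69, adjusted p = 4.5e-14, edgeR), Ddx54 was lower by a log2 fold change of -0.33, and the giant ATPase Mdn1 (0.05) was not called. Of 12 genes of the RNA exosome, which trims the precursor, 1 was higher (Exosc10, 0.19) and 5 were lower, Exosc6 among them (-0.94), while the nuclease Dis3 was not called (0.01). Among 10 snoRNA host transcripts 1 was higher and 5 lower, with Snhg5 (-0.30) and 1500012F01Rik (-0.30) lower and Gas5 (0.04) not called.

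With EC359 these lists moved less. Over all tested genes 12.7% were called higher and 13.9% lower. The shares were 2.33% and 6.98% for the further small subunit factors and 6.52% and 10.9% for the further large subunit factors. They were 0% and 8.33% for the RNA exosome and 10.0% and 0% for the snoRNA hosts. The remaining RNA polymerase I machinery had 0 calls, and its most abundant genes had log2 fold changes of -0.08 for Rrn3, 0.10 for Taf1d and 0.13 for Ttf1. The further small subunit factors had 1 higher call, Wdr36 (0.15), and 3 lower, among them Rrp7a (-0.22), while Pdcd11 (0.04) had none. The further large subunit factors had 3 higher, among them Mdn1 (0.21), and 5 lower, among them Eif6 (-0.22), while Ddx54 (-0.07) had none. The RNA exosome had 1 lower call, Exosc6 (-0.61), with Exosc10 (0.02) and Dis3 (-0.18) not called, and the snoRNA hosts had 1 higher call, with Gas5 (0.07), 1500012F01Rik (-0.08) and Snhg5 (-0.09) not called.

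Genes around Myc were called in both directions too. Of 9 tested genes of the Myc network, which holds the partner Max and the antagonists that compete for it, 2 were higher and 3 lower in HFD against LFD. Max was lower (-0.19, adjusted p = 0.013) and so was the antagonist Mnt (-0.28, adjusted p = 5.2e-05), while Mga, another partner of Max, was higher (0.48, adjusted p = 4.1e-09). With EC359, 2 were higher, among them Mga (0.19), and 1 was lower, and Max (-0.02) and Mnt (-0.13) were not called. Of 18 known Myc targets outside the nucleolus, 5 were higher and 7 lower with the diet, with Cad (-0.47), of pyrimidine synthesis, and Ldha (-0.23), lactate dehydrogenase, lower and the translation factor Eif4a1 (0.23) higher. With EC359 1 of them was higher and 9 were lower, Ldha (-0.11) and Cad (-0.15) among the lower, and Eif4a1 (0.04) was not called.

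The calls in these lists also changed with the trend in GC content removed. Over all tested genes 20.2% were then called higher and 22.7% lower in HFD against LFD. In HFD + EC359 against HFD these shares were 10.3% and 15.9%. In HFD against LFD the calls were then 2 higher and 1 lower for the remaining RNA polymerase I machinery, 3 and 16 for the further small subunit factors, 4 and 13 for the further large subunit factors, 1 and 7 for the RNA exosome, 0 and 6 for the snoRNA hosts, 0 and 2 for the Myc network and 4 and 6 for the Myc targets. Eif6 (-0.45), Exosc6 (-0.61) and Cad (-0.30) stayed lower and Rrn3 (0.30) higher, and Pdcd11, Rrp7a, Exosc10, Snhg5, Max, Ldha and Eif4a1 kept their calls. The calls of Taf1d (0.12), Ttf1 (0.16), Ddx54 (-0.10), 1500012F01Rik (-0.08), Mnt (-0.05) and Mga (0.11) were lost. Wdr36 (-0.16), Mdn1 (-0.09), Dis3 (-0.20) and Gas5 (-0.24) were then lower. In HFD + EC359 against HFD the calls with the trend removed were 0 higher and 1 lower for the RNA polymerase I machinery, 0 and 5 for the small subunit factors, 1 and 6 for the large subunit factors, 0 and 4 for the exosome, 0 and 3 for the snoRNA hosts, 1 and 1 for the Myc network and 1 and 9 for the Myc targets.

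The plot of shares sets these lists beside the members.

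**Figure D5:**
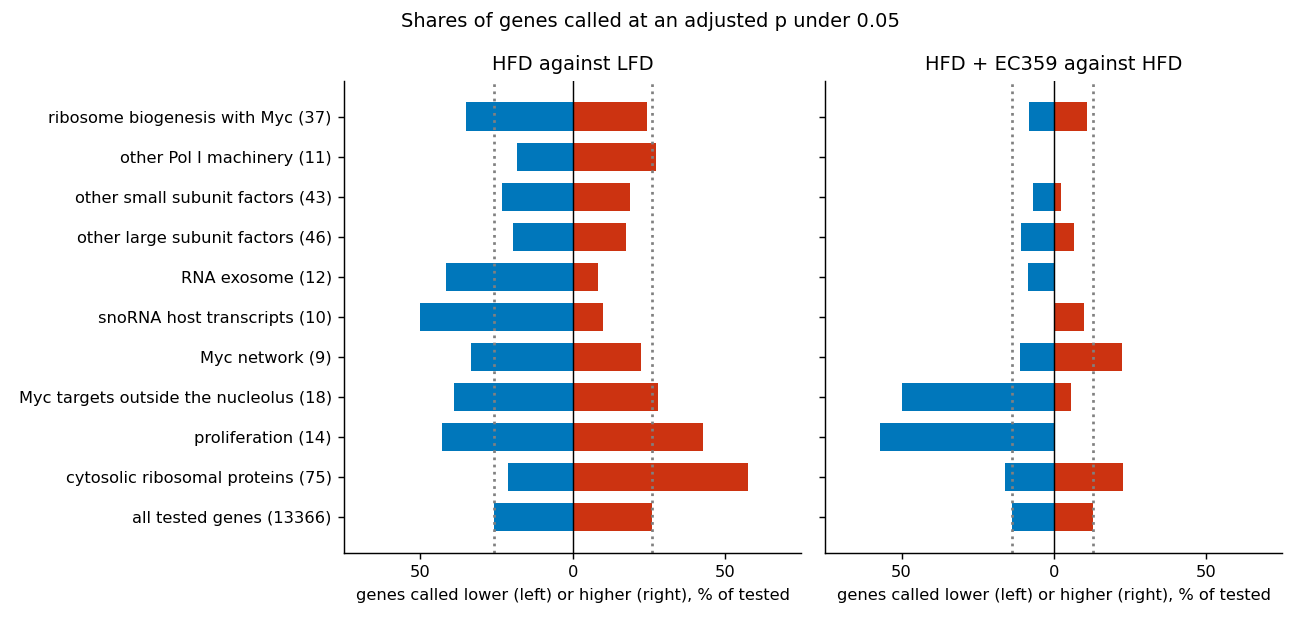
Share of the tested genes of each list called lower (blue, to the left) or higher (red, to the right) at an adjusted p under 0.05, in HFD against LFD (left) and HFD + EC359 against HFD (right), with the number tested in parentheses. Dotted lines mark the shares of all tested genes. The proliferation genes and the Myc targets outside the nucleolus reach past the dotted line on the lower side in the right panel, the cytosolic ribosomal proteins past both lines and the Myc network past that on the higher side, and the ribosome biogenesis genes stay inside both lines there.

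The ribosomal proteins are the cargo of the same pathway, and whether their list differs from that of the factors was not tested. Of 75 tested genes for cytosolic ribosomal proteins, 43 were higher and 16 lower in HFD against LFD, with a median log2 fold change of 0.16 against -0.06 for the members. These are 57.3% and 21.3%, where 26.0% of all tested genes were called higher and 25.8% lower. The median GC content was 51.4% for these genes and 51.5% for the members. With the trend in GC content removed, 39 were higher and 12 lower, where 20.2% of all tested genes were called higher and 22.7% lower. The median log2 fold change was then 0.15, against -0.02 for the members. The 3 most abundant were Rps3 (-0.44) and Rpl41 (-0.23), which were lower, and Rpl4 (0.27), which was higher. Their summed level was 23512 ± 662 CPM in LFD, 23774 ± 110 CPM in HFD and 23520 ± 210 CPM in HFD + EC359 tumors (SD, n = 3), so it did not differ beyond the spread of the libraries. These genes have many processed pseudogenes, and read pairs that match several places were split between them in the count tables. With EC359, 17 were higher and 12 lower, with a median of 0.01, but 5 were higher and 31 lower, with a median of -0.06, once the trend in GC content was removed. Over all tested genes 12.7% were called higher and 13.9% lower with EC359, or 10.3% and 15.9% with the trend removed. Rps3 (-0.19) and Rpl41 (-0.11) were lower again while Rpl4 (-0.01) was not called.

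Proliferation genes were read beside the members because dividing cells make more ribosomes. Of 14, 6 were higher and 6 lower in HFD against LFD, and in HFD + EC359 against HFD 0 were higher and 8 lower. Their summed level was 2017 ± 59.5 CPM in LFD, 2159 ± 11.9 CPM in HFD and 1929 ± 23.5 CPM in HFD + EC359 tumors (SD, n = 3). Mki67, the Ki-67 antigen, was higher with the diet (0.43, adjusted p = 3.0e-11) and did not pass the test with EC359 (-0.08, adjusted p = 0.088). With the GC trend removed the counts were 3 higher and 5 lower with the diet and 0 and 13 with EC359. Over all tested genes 26.0% were called higher and 25.8% lower with the diet, and 12.7% and 13.9% with EC359. With the GC trend removed these shares were 20.2% and 22.7% with the diet, and 10.3% and 15.9% with EC359. The topoisomerase Top2a rose with the diet (0.27, but -0.02 with the GC trend removed) and fell with EC359 (-0.21), and the helicase subunit Mcm7 was lower with the diet (-0.24) and not called with EC359 (-0.07). The median log2 fold change with EC359 was -0.18 for the proliferation genes and -0.04 for the ribosome biogenesis members, and whether these lists differ was not tested.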

How the data were processed

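RNA-seq was performed on 9 libraries, 3 per group. For each gene the authors deposited expected counts, without normalization. The submitters' processing notes name HISAT2 2.1.0 and featureCounts 1.5.0, the paper's methods TopHat2 and HTSeq, and both mm9. Read pairs that matched several places were counted in fractions, and the values were rounded to whole numbers here. The 37 members and the other gene lists were chosen with earlier results of these data known. Counts were fitted by edgeR 4.0.16 in R 4.3.3 (filterByExpr by group, TMM factors, 1 quasi-likelihood model of all 9 libraries, Benjamini-Hochberg over 13366 genes). Standard errors and 95% intervals come from that fit. A gene was called at an adjusted p under 0.05, in place of the methods' threshold, which is counted beside it. GC content and exon length were taken from mm9, and their trend was removed from each library by splines with 5 degrees of freedom each. Library values are given for Myc, up to 5 called members per direction with the largest changes in HFD against LFD and in HFD + EC359 against HFD, and the 3 members highest per kilobase; for each other list the 3 most abundant genes are named. Library values of other members, and the genes singled out besides, were chosen after their values were seen. Alternatives were DESeq2 1.42.0, RLE factors, library totals, other filters, thinned counts, the 6 libraries of a comparison, a replicate block, and each library left out. Deviations of same-numbered libraries correlated by -0.03 to 0.02, so the numbers do not pair them. The steps were tested on simulated data. List symbols absent from the tables (3) were not analysed here.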

Additional observations from a re-analysis of the deposited data

How the results depend on the processing

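The calls depended most on the trend with GC content and exon length. With it removed, the number of members called went from 22 to 13 in HFD against LFD and from 7 to 12 in HFD + EC359 against HFD. Among members called with or without the trend, the log2 fold change then changed sign in HFD against LFD for Myc (0.012), Ncl (-0.043), Tcof1 (0.052), Fbl (0.19), Nop58 (-0.23), Dkc1 (-0.0014), Heatr1 (-0.0068), Wdr43 (-0.015) and Rrp1 (0.023). In HFD + EC359 against LFD it did so for Ncl (-0.19), Npm1 (-0.12), Tcof1 (0.045), Dkc1 (-0.11), Utp20 (-0.052), Wdr43 (-0.034), Wdr12 (-0.0072) and Gnl3 (-0.15). Members called in neither fit changed sign too, 7 with the diet, 2 with EC359 under the high-fat diet and 2 between the treated and the LFD tumors. In HFD + EC359 against HFD, DESeq2 called 3 members and library totals 4, and the cause was not tested. The stricter rule of over 2-fold with an adjusted p under 0.01 left 1, 0 and 1 members in the 3 comparisons, which follows from its size, since the other changes were under 2-fold. Leaving out 1 library at a time gave 18 to 23, 5 to 10 and 24 to 30 calls and median log2 fold changes of -0.08 to -0.05, -0.06 to -0.03 and -0.15 to -0.12. With a replicate block, which stands for a number that the libraries only share, 21 members were called in HFD against LFD, the call of Myc being lost, and 7 and 30 in the other comparisons. The depth of 5085357 to 9751201 counts limits Nop10 most, at 3.27 CPM in the library where it was lowest.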
